A study of Homo sapiens with 24 samples.

Results

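The transcripts of 10 amino acid transporter genes were followed in the human B cell line P493 under MST-312, a compound that inhibits telomerase, and without it. The genes were taken by name, as those carrying large neutral, cationic and small neutral amino acids or the cystine of glutathione synthesis, and were SLC3A2, SLC7A5, SLC7A6, SLC7A11, SLC7A1, SLC1A5, SLC1A4, SLC38A1, SLC38A2 and SLC43A1. They and the gene lists below were chosen with earlier results of these data known, so counts and medians set beside all genes are descriptions. All 10 had an annotated probe on the Illumina beadchip, 13 probes in all. A detected probe, 10 of the 13, was found for 8 of the genes, and these 8 were tested among 10246 genes. P493 cells carry a MYC transgene that tetracycline (TET) shuts off, so that removal of TET releases MYC. The 4 MST-312 groups were held in MST-312 and TET for 48 h and then taken at 0, 4, 8 and 24 h after the move to TET-free medium that still held MST-312. The 4 untreated groups carry the same release times, and their treatment label reads none. How long the untreated cells were held in TET, if they were, is not stated in the labels. Each of the 8 groups had 3 arrays, 24 arrays in all, from this 1 cell line, and nothing in the labels says that replicates were separate cultures, so p-values measure the spread between these arrays, which may be technical.

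SLC3A2 is the heavy chain, also called CD98, that carries several SLC7 light chains to the plasma membrane. Its partners here are SLC7A5 (LAT1), which exchanges large neutral amino acids such as leucine, SLC7A6 (y+LAT2), which exchanges cationic for neutral amino acids, and SLC7A11 (xCT), which brings in cystine. SLC7A1 (CAT-1) takes up arginine and lysine, SLC1A5 (ASCT2) and SLC1A4 (ASCT1) exchange small neutral amino acids, SLC38A1 and SLC38A2 (SNAT1 and SNAT2) take up glutamine with sodium, and SLC43A1 (LAT3) carries large neutral amino acids without a heavy chain. Dividing lymphocytes depend on such uptake. MYC is known to bind the E-box CACGTG, and ATF4 with its C/EBP partners binds the amino acid response element, whose core is TGATGNAA.

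The promoter windows of these genes were searched for both motifs because several members are known targets of MYC or ATF4. RefSeq sequences on GRCh38.p14, each from 250 bases before to 50 bases after an annotated start, gave 16 windows for 9 of the 10 genes, all but SLC7A11. CACGTG, which reads the same on both strands, stood in a window of 3 genes, SLC7A5, SLC1A5 and SLC43A1. By window that is 3 of the 16, and it stands in 7.26% of all 35116 windows of this length. TGATGNAA, searched on both strands, stood in a window of 5 genes, SLC3A2, SLC7A1, SLC1A5, SLC1A4 and SLC38A1. By window that is 5 of the 16, and it stands in 3.62% of all windows. The motifs do not overlap each other. Each stretch of 30 bases below is written 5′ to 3′ on the gene's own strand, with the match in capitals.
SLC7A5, E-box 130 bases before the start, chr16:87869620-87869649, minus strand: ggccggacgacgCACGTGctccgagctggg
SLC1A5, E-box 50 bases before 1 of 3 annotated starts, chr19:46787326-46787355, minus strand: ggcgggagtggtCACGTGgacaggacgggg
SLC43A1, E-box 112 bases before 1 of 2 annotated starts, chr11:57515797-57515826, minus strand: cagcgggcgagtCACGTGcgcgtgaaactc
SLC7A1, response element core 7 bases after the start, chr13:29595663-29595692, minus strand: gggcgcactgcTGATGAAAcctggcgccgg
SLC38A1, response element core beginning 4 bases before 1 of 2 annotated starts, chr12:46266502-46266531, minus strand: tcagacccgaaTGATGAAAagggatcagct
SLC1A5, response element core 97 bases before another of its annotated starts, chr19:46784893-46784922, minus strand: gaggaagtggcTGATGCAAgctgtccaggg
SLC3A2, response element core on the opposite strand, 37 bases after a start downstream of its first, chr11:62881719-62881748, plus strand: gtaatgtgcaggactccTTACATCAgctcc
SLC1A4, response element core on the opposite strand, beginning 7 bases before 1 of 2 annotated starts, chr2:64989381-64989410, plus strand: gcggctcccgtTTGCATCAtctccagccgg
A match is a description of these letters and not a bound site. The 250 bases before the SLC7A5 start, the gene with the E-box in its only window, are shown whole, with the E-box in capitals.
SLC7A5, chr16:87869508-87869757, minus strand: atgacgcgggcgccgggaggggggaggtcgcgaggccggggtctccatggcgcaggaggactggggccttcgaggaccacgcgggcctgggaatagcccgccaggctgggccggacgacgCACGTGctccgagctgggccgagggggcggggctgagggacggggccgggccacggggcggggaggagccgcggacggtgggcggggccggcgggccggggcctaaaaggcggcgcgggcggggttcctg

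Levels below are log2 intensities after background correction and quantile normalisation, so that 1 unit is a factor of 2, and they are compared between arrays for the same probe and never between probes. A change was called at an adjusted p below 0.05 in limma, with Benjamini-Hochberg adjustment over all 10246 genes. Between 34.3% and 38.0% of the probes of an array were detected, and the mean raw intensity ran from 527 to 764. Of 9 B cell markers, 6 were detected on all 24 arrays, among them CD79A, MS4A1 and CD74, while PAX5 was detected on none. The summed raw intensity of the B cell markers was 48030 to 51230 on MST-312 arrays and 69500 to 81660 on untreated arrays at 24 h. Of the 6 markers tested at 24 h, 3 were higher with MST-312, MS4A1 (2.25), CD79A (0.47) and CD79B (0.30), and 3 were lower, CD74 (-1.50), HLA-DRA (-0.99) and CD22 (-0.53). At 0 h, 1 of these B cell markers was higher and 5 were lower, and at 4 and 8 h 2 were higher and 2 lower. The sum at 0 h was 71620 to 79000 on MST-312 arrays and 98440 to 125000 on untreated arrays. Among markers of other cell types, 7 of epithelial cells and fibroblasts summed to 2176 to 2340 on MST-312 arrays and 1229 to 1562 on untreated arrays at 24 h. EPCAM was detected on all 24 arrays, COL1A1 on 10, CDH1 on 9, KRT8 and DCN on 4, COL1A2 on 3 and KRT18 on 1. EPCAM stood at 10.13 to 10.25 on MST-312 arrays at 24 h, against 8.58 to 8.64 on untreated arrays. CDH1 was at least 2-fold lower with MST-312 at 4 h and at least 1.43-fold higher at 24 h. Of the 6 monocyte and macrophage markers, CD14 and CD68 were detected on 24 arrays, LYZ on 22 and FCGR1A and MARCO on 0, and their sum at 0 h was 2015 to 2276 on MST-312 arrays and 2642 to 2926 on untreated arrays. LYZ was lower with MST-312 at 0, 8 and 24 h (-1.53, -1.41 and -1.85). Of the 3 monocyte and macrophage markers tested, 1 was called higher and 1 lower at 24 h. CD14 stood higher at that time, at 6.77 to 7.24 on MST-312 arrays, against 5.95 to 6.23 on untreated arrays. Of the 6 T cell markers, CD2 was detected on 13 arrays, CD3G on 8 and CD3E on 0, and their sum ran from 696.4 to 885.8 on MST-312 arrays and from 729.5 to 1000 on untreated arrays over all times. The 2 that were tested, CD2 and CD3G, were called lower with MST-312 at 0 h, and 1 of them at each later time. Neither was detected on any MST-312 array at 0 h, where CD2 was at least 1.97-fold and CD3G at least 1.12-fold lower. CD3G, called at 4 and 24 h with no MST-312 array detected, was at least 1.31-fold and 1.06-fold lower then. The part of these markers in the results was not tested, and in bulk RNA fewer cells of a type and less RNA per cell cannot be told apart.

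With MST-312, transporter transcripts were higher or did not pass the test, and none was called lower at any of the 4 times. At 0 h, 5 of the 8 tested members were higher, SLC7A1, SLC3A2, SLC7A5, SLC1A5 and SLC38A2, beside 27.6% of all genes higher and 31.7% lower. At 4 h, 5 of 8 were higher, beside 26.5% of all genes higher and 32.9% lower. At 8 h, 5 of 8 were higher, beside 25.6% and 32.2%, and at 24 h it was 4 of 8, beside 28.9% and 32.9%. The members' median difference at 0, 4, 8 and 24 h was 1.24, 0.62, 0.45 and 0.28, against -0.02, -0.04, -0.03 and -0.03 over all genes, on the log2 scale. The members that were higher changed with time, and SLC3A2, SLC7A1 and SLC38A2 were called higher at all 4. With arrays scaled to a common median in place of quantile normalisation, the median of all genes moved to -0.14, -0.29, -0.26 and -0.17, 3 members were called higher at 8 h, and SLC3A2 alone was called at all 4 times, since SLC38A2 at 4 h (0.04, adjusted p = 0.78) and SLC7A1 at 24 h (0.14, adjusted p = 0.331) were not.

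**Figure D1:**
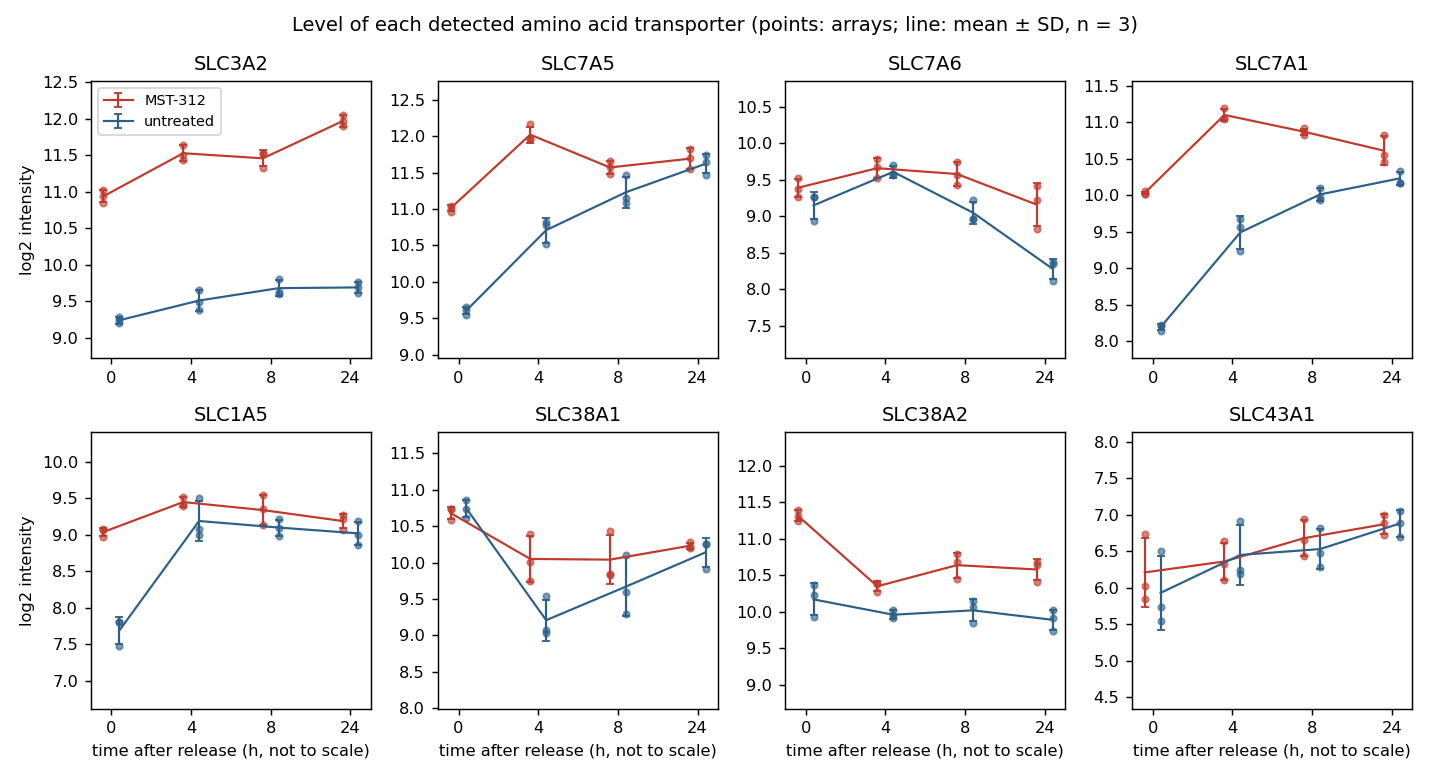
Log2 intensity (vertical axis, each panel spanning the same number of units) of the 8 detected transporters against the time after release (0, 4, 8 and 24 h, equally spaced), with MST-312 in red and untreated in blue; points are arrays, and lines join group means with SD bars, n = 3. The SLC3A2 groups are separated at every time, while the SLC7A5, SLC7A1 and SLC1A5 groups are far apart at 0 h and close at 24 h.

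SLC3A2, the shared heavy chain, was separated between the treatments at all 4 times, as were SLC7A1 and SLC38A2. At 0 h its level was 11.02, 10.94 and 10.85 on MST-312 arrays, against 9.29, 9.20 and 9.24 on untreated arrays. At 24 h it was 12.05, 11.97 and 11.90 on MST-312 arrays, against 9.77, 9.62 and 9.69 on untreated arrays. The lowest group mean with MST-312, 10.94 ± 0.08 at 0 h, lay above the highest untreated mean, 9.69 ± 0.07 at 24 h (SD, n = 3 each), and no MST-312 array overlapped any untreated one. The difference was 1.69, 2.02, 1.78 and 2.28 at 0, 4, 8 and 24 h, each with a standard error of 0.09, which is 3.23-fold, 4.05-fold, 3.44-fold and 4.86-fold. The adjusted p in limma ran from 2.29e-14 at 24 h to 2.29e-12 at 0 h, and SLC3A2 ranked 102nd of 10246 genes by the size of its rise at 24 h.

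A second, dimmer SLC3A2 probe showed larger differences. Its level at 24 h was 11, 10.73 and 10.76 on MST-312 arrays, against 7.61, 7.61 and 7.53 on untreated arrays. The difference on this probe was 2.47, 2.42, 2.47 and 3.24 at 0, 4, 8 and 24 h, with a standard error of 0.11 and adjusted p values from 1.2e-14 to 7.12e-13 (limma, over all passing probes). Both probes placed all MST-312 arrays above all untreated arrays at each time.

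SLC7A5, the leucine-exchanging light chain, differed early and not at 24 h. At 0 h it had a level of 11.04, 10.96 and 11.02 on MST-312 arrays, against 9.65, 9.55 and 9.62 on untreated arrays. At 4 h the levels were 12.16, 11.96 and 11.96 on MST-312 arrays, against 10.82, 10.52 and 10.78 on untreated arrays. The groups did not overlap at either time, with differences of 1.40 ± 0.11 (SE, 2.65-fold, adjusted p = 6.84e-10) and 1.32 ± 0.11 (2.49-fold, adjusted p = 1.82e-09). At 8 h the difference was 0.34 ± 0.11 (adjusted p = 0.01), and the call was lost without untreated 8 h replicate 2 (0.27, adjusted p = 0.0609), in a fit of the compared arrays alone (adjusted p = 0.0524) and with median scaling (0.01). At 24 h the level was 11.69 ± 0.14 on MST-312 arrays and 11.62 ± 0.13 on untreated arrays (SD, n = 3 each), and the difference of 0.07, with a 95% interval of -0.16 to 0.29, did not pass the test. SLC7A5 has near-identical pseudogene copies, and how far its probe reads them was not tested.

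SLC7A6, the light chain for cationic and neutral exchange, ran the other way in time. The difference was 0.24 at 0 h and 0.05 at 4 h, neither of which passed (adjusted p = 0.144 and 0.794 in limma). With the replicate number as a block, the 0 h difference passed (adjusted p = 0.0459). At 24 h its level was 9.41, 9.23 and 8.83 on MST-312 arrays, against 8.38, 8.11 and 8.34 on untreated arrays, which is 0.88 ± 0.14 higher (SE, 1.84-fold, adjusted p = 1.08e-05). At 8 h it was 0.53 higher (adjusted p = 0.0021), or 0.24 with median scaling, where the call was lost (adjusted p = 0.253). A second SLC7A6 probe gave 0.10, 0.05, 0.33 and 0.59 at 0, 4, 8 and 24 h, and was called higher at 8 and 24 h as well. SLC43A1, a carrier that needs no heavy chain, was dim, detected on 21 of 24 arrays, and its differences of 0.27, -0.09, 0.15 and -0.01 did not pass at any time, each with a standard error of 0.25.

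SLC7A1, the arginine and lysine carrier, had the largest difference of the members at 0 h. Its level there was 10.01, 10.06 and 10.02 on MST-312 arrays, against 8.14, 8.22 and 8.20 on untreated arrays. At 4 h it was 11.19, 11.06 and 11.04 on MST-312 arrays, against 9.67, 9.23 and 9.56 on untreated arrays. Every MST-312 array lay above every untreated array at these times and at 8 and 24 h. The difference was 1.84, 1.61, 0.86 and 0.38 at 0, 4, 8 and 24 h, each with a standard error of 0.10, which is 3.58-fold, 3.05-fold, 1.82-fold and 1.31-fold. The adjusted p in limma was 6.12e-12 at 0 h and 0.00298 at 24 h, and the 24 h call was lost with median scaling (0.14, adjusted p = 0.331). Across the 24 arrays the levels of SLC7A1 and SLC7A5 had a Pearson correlation of 0.97, a description of arrays that share 8 groups and 1 normalisation.

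SLC1A5, the small neutral amino acid exchanger best known for glutamine, differed at 0 h. Its level was 8.97, 9.08 and 9.07 on MST-312 arrays, against 7.48, 7.81 and 7.80 on untreated arrays, which is 1.34 ± 0.13 higher (SE, 2.54-fold, adjusted p = 1.85e-08 in limma). At 4 h the level was 9.43, 9.40 and 9.52 on MST-312 arrays, against 9.08, 9.5 and 9 on untreated arrays. The groups overlapped at 4, 8 and 24 h, where differences of 0.26, 0.24 and 0.17 did not pass. The 4 h difference passed without untreated 4 h replicate 2 (0.41, adjusted p = 0.00933) and the 8 h difference without MST-312 8 h replicate 2 (0.35, adjusted p = 0.0404), while with median scaling the 3 differences were -0.09, -0.06 and -0.01.

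The sodium-coupled glutamine carriers SLC38A1 and SLC38A2 differed from each other in pattern. SLC38A2, which is known to be induced when amino acids are scarce, had levels of 11.32, 11.24 and 11.39 on MST-312 arrays at 0 h, against 10.23, 9.93 and 10.37 on untreated arrays. Its groups did not overlap at any time, and it was 1.14, 0.39, 0.62 and 0.69 higher at 0, 4, 8 and 24 h, each with a standard error of 0.12 and with adjusted p values of 3.54e-08, 0.00652, 0.000104 and 2.69e-05 in limma. With median scaling the 4 h difference was 0.04 and was not called. SLC38A1 had levels of 10.73, 10.59 and 10.73 on MST-312 arrays at 0 h, against 10.86, 10.74 and 10.61 on untreated arrays, and that difference of -0.05 did not pass.

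SLC38A1 was higher with MST-312 at 4 h, when its level was 10.01, 10.39 and 9.75 on MST-312 arrays, against 9.07, 9.54 and 9.03 on untreated arrays. The difference was 0.84 ± 0.20 (SE, 1.79-fold, adjusted p = 0.000907 in limma). At 8 h the levels were 9.83, 10.43 and 9.85 on MST-312 arrays, against 9.30, 10.10 and 9.60 on untreated arrays, so that replicate 2 was the highest array in both treatments at 4 and 8 h. The 8 h difference of 0.37 did not pass (adjusted p = 0.111), but passed with the replicate number as a block within each time (adjusted p = 0.00363) and without untreated 8 h replicate 2 (0.59, adjusted p = 0.0147). At 24 h the difference was 0.09 (adjusted p = 0.712), and the second SLC38A1 probe was detected on 5 of 24 arrays and was not tested.

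**Figure D2:**
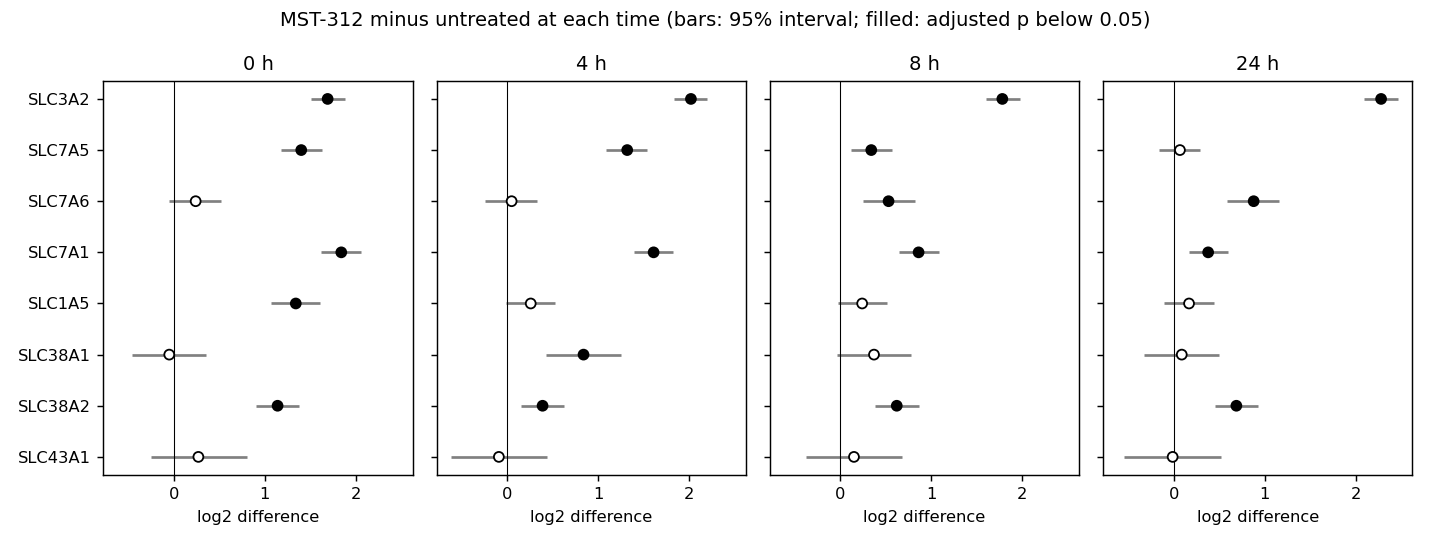
Difference in log2 intensity, MST-312 minus untreated (horizontal axis), for each of the 8 tested transporters (rows) at 0, 4, 8 and 24 h (panels), from limma; bars are 95% intervals, filled points have an adjusted p below 0.05 and open points do not. SLC3A2 lies between 1.69 and 2.28 in all panels, while SLC7A5 moves from 1.40 in the 0 h panel to 0.07 in the 24 h panel.

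SLC7A11, the cystine carrier, was detected on 0 of 24 arrays, with raw intensities of 65.7 to 137.4, and SLC1A4 on 2 of 24, with 107.8 to 174.9. Neither was tested. Their probes were not well above background, so no level is given for them.

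Among all 10246 genes, SLC3A2 and SLC7A1 stood near the upper end of the differences at 0 h. At that time 98.4% of genes had a smaller difference than SLC3A2, 98.8% a smaller one than SLC7A1, 97.1% than SLC7A5 and 96.7% than SLC1A5. At 24 h it was 99.0% for SLC3A2, while SLC7A5, at 55.9%, lay near the middle.

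**Figure D3:**
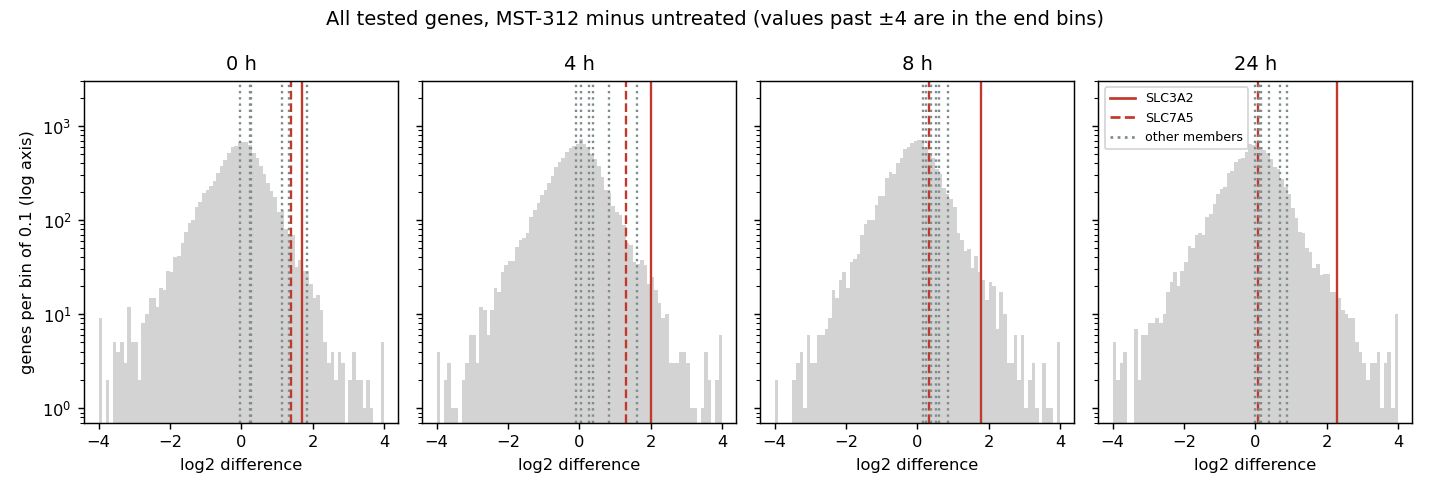
Number of genes (log axis, bins of 0.1) against the log2 difference, MST-312 minus untreated, at 0, 4, 8 and 24 h, over 10246 genes; lines mark SLC3A2 (solid red), SLC7A5 (dashed red) and the other 6 tested members (dotted grey). SLC3A2 stays in the upper tail, at 1.69, 2.02, 1.78 and 2.28, and SLC7A5 lies at 1.40, 1.32, 0.34 and 0.07.

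Release was followed within each treatment by setting later times against 0 h. In MST-312 cells, 4 members rose and 2 fell by 4 h, beside 18.1% of all genes higher and 18% lower. By 8 h it was 3 up and 2 down, beside 18.9% and 22%, and by 24 h 4 up and 1 down, beside 24.5% and 26.5%. When any 1 array was left out, 4 to 6 members were called at each of these times. In untreated cells, 5 members rose and 1 fell by 4 h, beside 22.8% and 22.1% of all genes. By 8 h it was 4 up and 1 down, beside 24.8% and 26.4%, and by 24 h all 8 tested members were called, 5 up and 3 down, beside 29% and 30.5% (6 with median scaling, and 7 to 8 when any 1 array was left out). The count called in untreated cells was 5 to 7 at 4 h and 5 to 6 at 8 h when any 1 array was left out. The treatment and release comparisons share arrays, so their values are given side by side.

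SLC7A5 and SLC7A1 rose in both treatments and reached 24 h by different courses. In MST-312 cells SLC7A5 was highest at 4 h, 12.02 ± 0.11, and in untreated cells at 24 h, 11.62 ± 0.13 (SD, n = 3 each). Its change from 0 h to 24 h was 0.68 ± 0.11 in MST-312 cells (adjusted p = 2.46e-05) and 2.02 ± 0.11 in untreated cells (adjusted p = 3.5e-12, SE, limma). For SLC7A1 the same changes were 0.58 ± 0.10 in MST-312 cells and 2.04 ± 0.10 in untreated cells. In untreated cells 99.6% of genes had a smaller change at 24 h than either, which ranked 42nd (SLC7A5) and 37th (SLC7A1) of 10246. SLC1A5 rose by 4 h in both treatments, by 0.41 ± 0.13 in MST-312 cells (adjusted p = 0.0173) and by 1.5 ± 0.13 in untreated cells (adjusted p = 9.95e-09). The MST-312 call was lost without MST-312 0 h replicate 1 (0.37, adjusted p = 0.0626), without MST-312 4 h replicate 3 (0.37, adjusted p = 0.0619) and with median scaling (0.36). Its 8 h change in MST-312 cells, 0.30, did not pass (adjusted p = 0.0683). That change passed in several settings, among them the authors' values (0.26, adjusted p = 0.047).

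SLC3A2 rose in both treatments, by 1.04 ± 0.09 in MST-312 cells (adjusted p = 6.88e-09) and by 0.45 ± 0.09 in untreated cells (adjusted p = 0.000195, SE, limma) at 24 h. Its change at 4 h was 0.59 in MST-312 cells and 0.27 in untreated cells, the second of which was not called without untreated 4 h replicate 1 (0.19, adjusted p = 0.12) or untreated 0 h replicate 2 (0.24, adjusted p = 0.0636), with cyclic loess (0.20) or in a fit of the compared arrays alone (adjusted p = 0.0746). On the second SLC3A2 probe the 4 h change was 0.56 in MST-312 cells and 0.62 in untreated cells (adjusted p = 0.000767 and 0.000214, limma over all passing probes), and the 24 h change was 1.34 in MST-312 cells and 0.57 in untreated cells. SLC7A6 had a change at 24 h of -0.23 in MST-312 cells (adjusted p = 0.162), which passed without MST-312 24 h replicate 1 (-0.36, adjusted p = 0.0431), and of -0.87 ± 0.14 in untreated cells (adjusted p = 1.21e-05). Its untreated level was 8.38, 8.11 and 8.34 at 24 h, against 9.26, 9.26 and 8.93 at 0 h, with no overlap. The second SLC7A6 probe gave 0.11 in MST-312 cells (adjusted p = 0.404) and -0.38 in untreated cells (adjusted p = 0.00288), so the probes differed in sign in MST-312 cells and in size in untreated cells. In MST-312 cells the second probe rose by 0.41 at 4 h and 0.32 at 8 h (adjusted p = 0.00307 and 0.0142, limma over all passing probes). The first probe, at 0.27 and 0.19, did not pass at those times.

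SLC38A2 fell with release in MST-312 cells, by 0.97, 0.68 and 0.74 at 4, 8 and 24 h, each with a standard error of 0.12. Its level there was 10.40, 10.38 and 10.27 at 4 h, against 11.32, 11.24 and 11.39 at 0 h. In untreated cells its change at 24 h was -0.29 ± 0.12 (adjusted p = 0.0381 in limma), a call lost when untreated 0 h replicate 1 or 3 or untreated 24 h replicate 1 or 2 was left out (-0.26, -0.19, -0.21 and -0.30), and also with median scaling (-0.06), with no filter on dim probes and in a fit of the compared arrays alone. SLC38A1 fell deepest in untreated cells at 4 h, to 9.07, 9.54 and 9.03, against 10.86, 10.74 and 10.61 at 0 h, a change of -1.53 ± 0.20 (adjusted p = 2.15e-06). In MST-312 cells its change at 4 h was -0.63 ± 0.20 (adjusted p = 0.0155), a call lost without MST-312 4 h replicate 3 (-0.48, adjusted p = 0.0918). The SLC38A1 change at 24 h there, -0.45 with no overlap, did not pass (adjusted p = 0.0588). It passed in several settings, among them the authors' values (-0.42, adjusted p = 0.0315). SLC43A1 changed by 0.66 in MST-312 cells (adjusted p = 0.0355 in limma) and 0.94 in untreated cells (adjusted p = 0.00311) at 24 h. The MST-312 call was lost when MST-312 0 h replicate 2 or 3 or MST-312 24 h replicate 1 or 2 was left out (0.57, 0.48, 0.65 and 0.59). Cyclic loess (0.60), array weights (0.60) and no filter on dim probes also lost it. At 0 h the SLC43A1 probe was detected on 2 of 3 MST-312 arrays and 1 of 3 untreated arrays. It passed the detection filter only through later groups, each with all 3 arrays detected. Both rises, which are in the counts of members that rose by 24 h, thus start near background, and their size is uncertain.

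**Figure D4:**
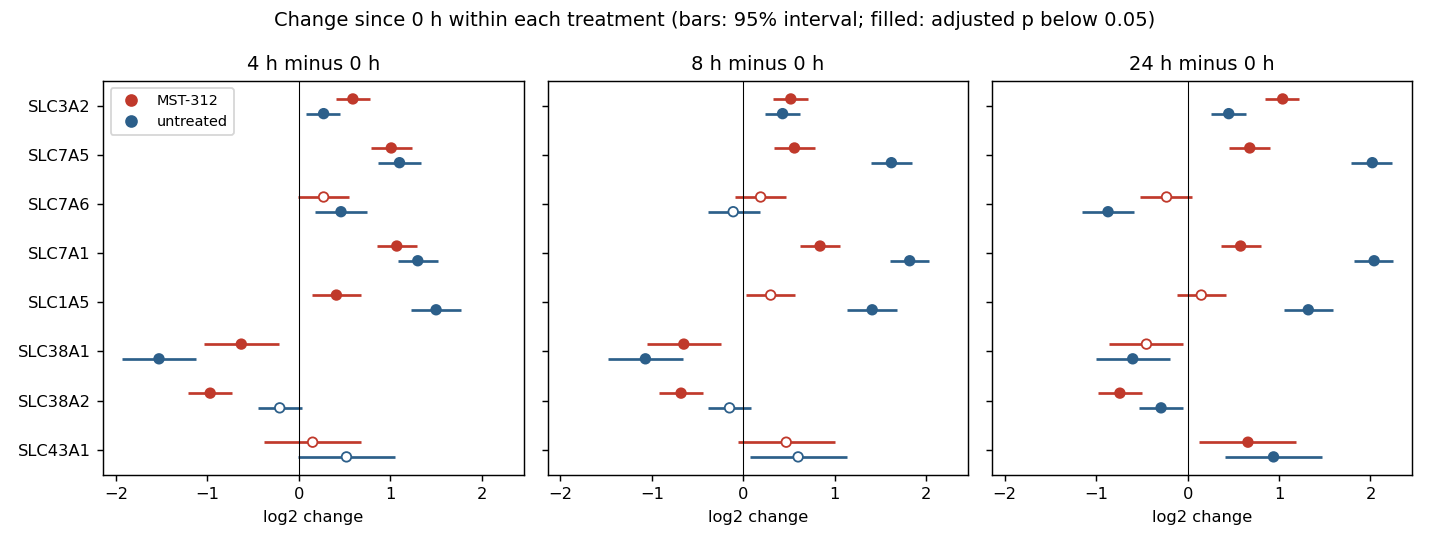
Change in log2 intensity since 0 h (horizontal axis) at 4, 8 and 24 h (panels) for the 8 tested transporters (rows), in MST-312 cells (red, upper of each pair) and untreated cells (blue, lower); bars are 95% intervals, and filled points have an adjusted p below 0.05. SLC7A5 and SLC7A1 lie at 0.68 and 0.58 in MST-312 cells and at 2.02 and 2.04 in untreated cells at 24 h, and SLC38A2 lies below -0.6 in MST-312 cells in all panels.

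The interaction tested whether the change since 0 h differed between the treatments, as the MST-312 change minus the untreated change. At 4 h, 1 member was called above 0 and 2 below, beside 11.3% and 11.5% of all genes. At 8 h it was 0 above and 4 below, beside 10.1% and 10.1%, and at 24 h 2 above and 4 below, beside 14.5% and 15.4%. SLC7A1, SLC7A5 and SLC1A5 had interactions at 24 h of -1.45 ± 0.15, -1.34 ± 0.15 and -1.17 ± 0.18 (SE, adjusted p = 2.65e-07, 1.58e-06 and 6.21e-05 in limma), and SLC38A2 had -0.45 ± 0.16 (adjusted p = 0.0417), a call lost without any 1 of 7 arrays (-0.33 to -0.48). SLC3A2 and SLC7A6 had interactions above 0 at 24 h, 0.59 ± 0.13 (adjusted p = 0.00142) and 0.64 ± 0.19 (adjusted p = 0.0151).

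Apart from these members, 53 other genes known to carry amino acids or their small peptides across the plasma, lysosomal or mitochondrial membrane were counted, of which 20 were tested. With MST-312, 4 were higher and 6 lower at 0 h, 4 and 6 at 4 h, 3 and 10 at 8 h, and 4 and 12 at 24 h, beside the shares of all genes given above. Their median difference was -0.11, 0.01, -0.24 and -0.35, against 1.24, 0.62, 0.45 and 0.28 for the 8 members. SLC38A9, the lysosomal arginine sensor that acts upstream of mTORC1, was not detected on any of the 12 MST-312 arrays and was detected on all 12 untreated arrays. Its level at 4 h was 4.95 to 5.21 on MST-312 arrays, against 7.56 to 7.80 on untreated arrays. It was at least 2.36-fold, 3.42-fold, 2.75-fold and 2.45-fold lower with MST-312 at 0, 4, 8 and 24 h, where the MST-312 mean was taken at the lowest signal of a detected probe or the probe's own, whichever was higher, with adjusted p values from 1.74e-13 to 1.43e-10 in limma.

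SLC25A12, the mitochondrial aspartate and glutamate carrier, was lower at each time, with differences of -1.08, -1.06, -1.22 and -1.29. SLC15A3, a lysosomal carrier of histidine and peptides, differed by -1.18 at 0 h and -0.69 at 4 h, both called. Carriers that were higher included SLC43A2 (LAT4), a relative of SLC43A1, with levels of 9.96 to 10.28 on MST-312 arrays at 4 h, against 8.33 to 8.97 on untreated arrays, a difference of 1.37 (adjusted p = 1.72e-07), and of 0.74 at 24 h. SLC16A10, an aromatic amino acid carrier, was higher by 0.81 at 0 h and 0.61 at 4 h, and SLC25A38, the mitochondrial glycine carrier, by 0.65 at 0 h. At 24 h the differences were -0.71 for CTNS, the lysosomal cystine carrier, -0.69 for SLC25A29 and -0.61 for SLC25A13, the other aspartate and glutamate carrier, all called lower. SLC7A2, a cationic carrier, was called lower at 8 h (-0.67) and at 4 h, when it was detected on 0 of 3 MST-312 arrays and 1 of 3 untreated arrays and was at least 1.01-fold lower. SLC25A22, a mitochondrial glutamate carrier, differed by -0.60 at 0 h and 0.41 at 4 h, both called.

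**Figure D5:**
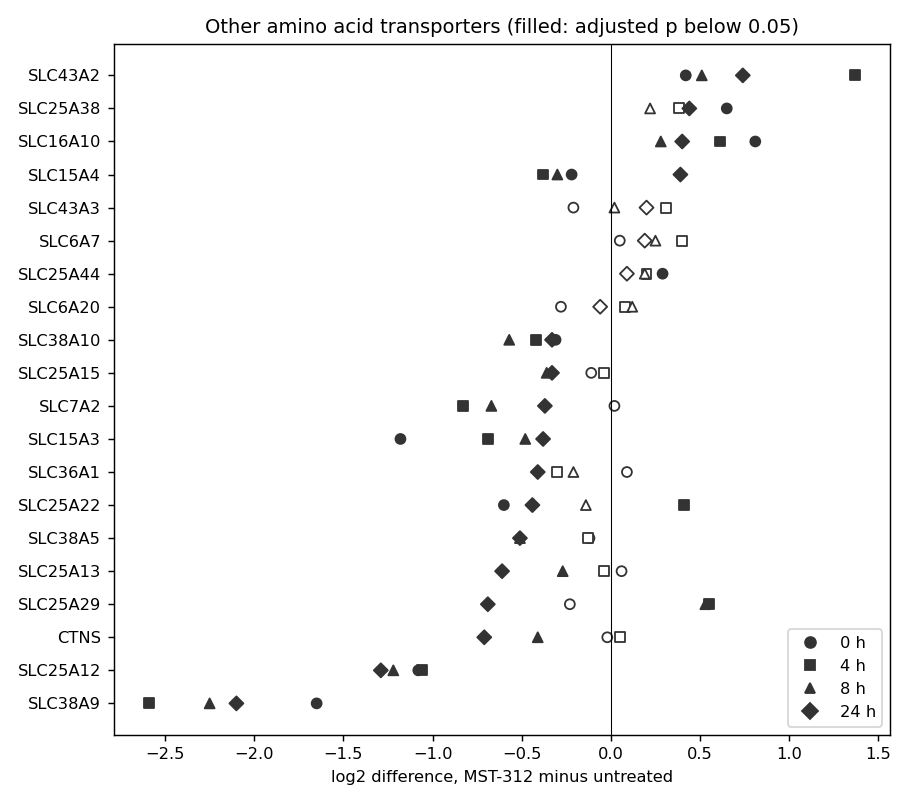
Log2 difference, MST-312 minus untreated, for 20 other tested amino acid transporters (rows, ordered by the 24 h value) at 0 h (circles), 4 h (squares), 8 h (triangles) and 24 h (diamonds); filled symbols have an adjusted p below 0.05. SLC43A2 is the highest row and SLC38A9 the lowest, where the MST-312 arrays were not above background and the fitted difference is no bound.

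Genes known to respond to amino acid shortage were counted from a list of 15, of which 12 were tested. With MST-312, 9 were higher at 0 h, 10 at 4 h, 9 at 8 h with 1 lower, and 8 at 24 h with 3 lower, beside 27.6%, 26.5%, 25.6% and 28.9% of all genes higher and 31.7%, 32.9%, 32.2% and 32.9% lower. The list's median was 1.19, 1.49, 0.99 and 0.83 at the 4 times, against -0.02, -0.04, -0.03 and -0.03 over all genes. DDIT3, the stress factor CHOP, was higher by 1.88, 2.24, 2.19 and 2.97 at 0, 4, 8 and 24 h, and ATF4 itself by 0.72, 1.31, 1.05 and 1.12. PSAT1, an enzyme of serine synthesis, had levels of 9.84 to 10.01 on MST-312 arrays at 0 h, against 7.47 to 7.60 on untreated arrays, a difference of 2.38 (adjusted p = 9.56e-15 in limma). At 24 h its level was 9.16 to 9.35 on MST-312 arrays, against 9.79 to 9.87 on untreated arrays, a difference of -0.59 (adjusted p = 6.19e-06). ASNS, asparagine synthetase, was higher by 1.29, 1.86, 0.93 and 0.25, and STC2, a secreted glycoprotein, by 2.12, 1.69, 1.28 and 1.47. TRIB3, a pseudokinase, was higher by 1.17, 2.08, 1.27 and 1.36, ATF3 by 1.08, 1.45, 1.38 and 1.28, and CEBPB, a partner of ATF4, by 1.63 at 0 h. Other genes of the list did not follow these at every time. DDIT4 stood higher at 4 h, at 8.46 to 8.76 on MST-312 arrays, against 8.15 to 8.31 on untreated arrays. At 24 h DDIT4 stood lower, at 8.33 to 8.45 on MST-312 arrays, against 8.95 to 9.17 on untreated arrays. EIF4EBP1 was at 6.11 to 6.58 on MST-312 arrays then, against 6.82 to 7.10. SESN2 overlapped between the treatments at 0 h. At 24 h SESN2 stood higher, at 7.12 to 7.30 on MST-312 arrays, against 6.41 to 6.74 on untreated arrays. CHAC1 and VLDLR were detected on 0 of 24 arrays.

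Of 18 genes that use glutamine, cysteine or branched-chain amino acids after uptake, 13 were tested. With MST-312, 2 were higher and 6 lower at 0 h, 1 and 7 at 4 h, 1 and 9 at 8 h, and 1 and 8 at 24 h, beside 25.6% to 28.9% of all genes higher and 31.7% to 32.9% lower over these times. The list's median was -0.33, -0.40, -0.61 and -0.42 at the 4 times, against -0.02, -0.04, -0.03 and -0.03 over all genes. CBS, which makes cystathionine from homocysteine, was not detected on any MST-312 array at 0, 4 or 8 h, and was at least 3.45-fold, 3.68-fold and 4.08-fold lower there, while at 24 h, with 1 of 3 MST-312 arrays detected, the difference was -2.54. GCLC, the catalytic subunit of the first step of glutathione synthesis, was higher by 0.77, 0.50, 0.69 and 1.00 at 0, 4, 8 and 24 h. GSS, glutathione synthetase, ran the other way. It was not detected on any MST-312 array at 0 h and was at least 3.16-fold lower there (adjusted p = 6.6e-10 in limma). At 24 h the GSS level was 6.38 to 6.87 on MST-312 arrays, against 8.02 to 8.24 on untreated arrays. BCAT2, the mitochondrial branched-chain aminotransferase, was lower, with differences of -1.09, -0.67, -1.24 and -1.37. GLUL, glutamine synthetase, did not pass at any time, with differences of 0.08 to 0.30.

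The 5 genes whose level over the 24 arrays was most like that of SLC3A2, by Pearson correlation, were SNHG1 (0.990), SLC11A2 (0.989), LRRC14 (0.987), ARIH1 (0.984) and SNORD65 (0.984). These are descriptions over arrays that share groups and normalisation. SNHG1, a long noncoding RNA that hosts small nucleolar RNAs in its introns, lies next to SLC3A2 on chromosome 11 and is read away from it. The 223 bases between the most upstream annotated SLC3A2 start and the SNHG1 start are shown because both genes begin at their ends, and neither motif occurs in them.
SLC3A2 to SNHG1, chr11:62855886-62856108, plus strand: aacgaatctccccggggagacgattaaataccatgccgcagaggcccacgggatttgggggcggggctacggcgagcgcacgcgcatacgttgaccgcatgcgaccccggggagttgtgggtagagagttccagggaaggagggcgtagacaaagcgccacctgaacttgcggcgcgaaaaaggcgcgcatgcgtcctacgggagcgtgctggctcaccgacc
The SNHG1 difference, MST-312 minus untreated, was 1.74, 1.98, 1.71 and 2.09 at 0, 4, 8 and 24 h, beside 1.69, 2.02, 1.78 and 2.28 for SLC3A2.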

How the data were processed

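Per the labels' protocols, biotin-labelled cRNA was made from total RNA of 24 samples and read on Illumina beadchips. Per the file headers, every one of 47322 probes has an unnormalised intensity and, beside it, a p-value of detection in the deposited raw table. A value table holds the authors' processed intensity on a linear scale, with nearly equal array medians (138.28 to 138.37), and how they were made is not stated. These values served as an alternative. Their median treatment differences over all genes, -0.01, -0.02, -0.02 and -0.02 at 0, 4, 8 and 24 h, equalled those of quantile normalisation without background correction. Median scaling, another alternative, centred each array on all 47322 probes, of which 34.3% to 38.0% were detected. Probes were named through the platform annotation, with 1 symbol for 30113 probes, several for 8 and none for 17201.

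Here neqc (limma 3.58.1, R 4.3.3) inferred the background of the raw intensities from those p-values, added 16, and applied quantile normalisation and log2. The 17882 probes detected (p below 0.05) throughout the 3 arrays of some group were kept, and the probe with the highest mean stood for its gene (10246 genes). A limma model with 8 group means (16 residual and 3.78 prior degrees of freedom) gave 13 comparisons, 4 of treatment, 6 of release and 3 interactions. All p values adjusted by the Benjamini-Hochberg method are limma's and two-sided. Precision is limited by having 3 arrays a group. Where no array of the dimmer group detected a probe, a ratio is given as "at least".

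The members and gene lists were chosen with earlier results of these data known. Named were all members, up to 6 changed other transporters past 1.5-fold and up to 4 changed response genes at each time, and the 5 genes most like SLC3A2. Further genes of the lists on amino acid response and on amino acid use were named after their values were seen. Pairing was checked on the replicate numbers of the labels. Same-numbered arrays of one time deviated together in all 12 pairs (correlations of 0.11 to 0.378), so the numbers pair the arrays in the treatment comparisons. Across times, as in the release comparisons, some pairs lay under 0.1. An interaction sets the treatment difference of a later time against that at 0 h, so it takes in the pairing within a time. The main fit took no block, so its p-values do not use the pairing. Chip and scan batches were not analysed here. The fit was run on simulated data with independent noise for each array and known changes in the MST-312 0 h group. That simulation does not hold the pairing, so it cannot show how the pairing bears on the p-values. Alternatives covered normalisation, filter, probe choice, array weights, prior, the replicate block and leaving out each array. Promoter sequences are from RefSeq, and figures were drawn with matplotlib 3.10.9.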

Additional observations from a re-analysis of the deposited data

Results flagged for a closer look

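The change since 0 h differed between MST-312 and untreated cells, by the interaction test, for the transporters and times given here, and each value is the MST-312 change minus the untreated change on the log2 scale. SLC1A5 had -1.09, -1.11 and -1.17 at 4, 8 and 24 h (adjusted p = 0.000217, 0.000221 and 6.21e-05 in limma). SLC7A5 had -1.06 and -1.34 at 8 and 24 h (adjusted p = 5.28e-05 and 1.58e-06), and SLC7A1 had -0.98 and -1.45 (adjusted p = 7.86e-05 and 2.65e-07). SLC38A2 had -0.75, -0.52 and -0.45 at 4, 8 and 24 h (adjusted p = 0.00206, 0.0275 and 0.0417). Its 8 h call was lost when MST-312 0 h replicate 3, MST-312 8 h replicate 1, untreated 0 h replicate 2, untreated 8 h replicate 2 or untreated 8 h replicate 3 was left out (-0.48, -0.43, -0.40, -0.50 and -0.46), with cyclic loess (-0.42, adjusted p = 0.0773) and in a fit of the compared arrays alone (adjusted p = 0.0698). Its 24 h call was lost when MST-312 0 h replicate 1 or 3, MST-312 24 h replicate 1, untreated 0 h replicate 1 or 2 or untreated 24 h replicate 2 or 3 was left out (-0.45, -0.41, -0.37, -0.48, -0.33, -0.44 and -0.39), with cyclic loess (-0.42, adjusted p = 0.0624), with no filter on dim probes (adjusted p = 0.0719) and in a fit of the compared arrays alone (adjusted p = 0.0726). SLC3A2 had 0.59 at 24 h (adjusted p = 0.00142) and SLC7A6 had 0.64 (adjusted p = 0.0151), or 0.67 with median scaling, where the call was lost (adjusted p = 0.0547). SLC38A1 had 0.90 at 4 h (adjusted p = 0.0239), a call lost when MST-312 4 h replicate 2, untreated 0 h replicate 1, untreated 4 h replicate 1 or untreated 4 h replicate 3 was left out (0.73, 0.83, 0.82 and 0.81) and with median scaling (0.75, adjusted p = 0.0846). The members that start further apart at 0 h have interactions below 0 by construction where they meet later, since the interaction is the later treatment difference minus that at 0 h. What lay behind the differences was not tested.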

How the results depend on the processing

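Of 3696 values of single members under the alternatives, 3569 kept their direction and their side of the threshold, 56 lost a call, 46 gained one and 25 turned their direction, all 25 in values that were not called. With median scaling, 3 members in place of 5 were called higher with MST-312 at 8 h, and differences that turned were SLC7A6 at 4 h (-0.30), SLC1A5 at 4, 8 and 24 h (-0.09, -0.06 and -0.01), SLC43A1 at 8 h (-0.03), SLC7A5 and SLC38A1 at 24 h (-0.17 and -0.14), the untreated 8 h changes of SLC7A6 and SLC38A2 (0.03 and 0.04) and the SLC3A2 interaction at 8 h (-0.02). SLC7A5 at 24 h was -0.01 with cyclic loess, and SLC43A1 at 8 h was -0.03 with array weights. The cause was not tested. Leaving out 1 array at a time turned the direction within these ranges: SLC38A1 at 0 h -0.11 to 0.01 and at 24 h -0.03 to 0.15, SLC7A6 at 4 h -0.02 to 0.12, SLC7A5 at 24 h -0.01 to 0.14, SLC43A1 at 4 h -0.23 to 0.15 and at 24 h -0.10 to 0.08, the SLC43A1 change at 4 h in MST-312 cells -0.02 to 0.42 and its interaction at 8 h -0.42 to 0.14. Median scaling also moved the split of all genes, to 1888 higher and 3705 lower at 0 h (2833 and 3247 with quantile normalisation), 1430 and 4632 at 4 h (2716 and 3367), 1419 and 4405 at 8 h (2618 and 3295) and 2015 and 3981 at 24 h (2962 and 3369). With the replicate block, 6 members were called at 0 h in place of 5, and with the block within each time 6 in place of 5 at 8 h, and the block changed no other call in a treatment comparison. The SLC3A2 interaction at 4 h (0.33, adjusted p = 0.0691) passed with either block (adjusted p = 0.0146 and 0.0253). On the second SLC3A2 probe it was -0.05 and did not pass. The SLC38A1 interaction at 8 h (0.43, adjusted p = 0.319) passed with the block within each time (adjusted p = 0.0318). Over all pairs, 64 of 84 same-numbered pairs had a correlation over 0.1, and 60 correlated best with their own number. Without 1 array at a time, the members called with MST-312 numbered 5 at 0 h, 5 to 6 at 4 and 8 h and 4 at 24 h. SLC7A11 and SLC1A4 were limited by signal over background.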

Other observations

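The genes beside SLC3A2 on chromosome 11 were looked at after the likeness of SNHG1 had been seen. Of the small nucleolar RNAs annotated inside SNHG1, SNORD25 and SNORD30 were higher with MST-312 at each time. SNORD25, the one nearest to SLC3A2, was higher by 2.88, 3.52, 3.14 and 3.46 at 0, 4, 8 and 24 h, and SNORD30 by 1.22, 1.29, 1.36 and 1.85. SNORD22 did not pass at any time, with differences of -0.47, 0.03, 0.17 and -0.29. SNORD27 was higher by 0.85 at 8 h and 1.61 at 24 h, and SNORD31 by 1.06 at 24 h and 0.25 at 0 h. WDR74, a protein-coding gene on the far side of SNHG1, was higher by 0.68, 0.66, 0.73 and 0.55 (adjusted p = 0.0142, 0.0171, 0.00983 and 0.0417 in limma), and its level over the 24 arrays had a Pearson correlation of 0.621 with that of SLC3A2, against 0.963 for SNORD25. CHRM1, on the other side, was not tested. How far the probes named for small nucleolar RNAs read the host transcript was not tested.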
